A study of Mus musculus with 16 samples.

Results

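The genes described here are 9 members of the fibroblast growth factor (FGF) pathway: the receptors Fgfr1, Fgfr2 and Fgfr3, the transcription factors Etv1, Etv4 and Etv5, and the inhibitors Spry1, Spry2 and Dusp6. They were chosen by name, and each of the 9 is among the 14498 genes of the deposited matrix. The cells came from the forebrain of CD1 wild-type mouse embryos at embryonic day 15.5, and RNA of single cells was captured in droplets with the SureCell kit. The series' text also names the cerebral cortex, but the cells include ventral classes, such as 516 ganglionic eminence progenitor-like and 258 striatal neuron-like cells. The 16 samples are 1 group with no treatment or mutant, and the cell names carry no sample, so the 5777 cells were treated as 1 pool. No spread between embryos can be given, and every interval below is a 95% interval that covers counting error only.

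FGF receptors are receptor tyrosine kinases that, once bound by an FGF ligand together with heparan sulfate, signal through adaptors to Ras and the MAP kinases. Etv1, Etv4 and Etv5 are ETS transcription factors of the PEA3 group, whose transcription rises with FGF signalling in many embryonic tissues. Sprouty proteins and the phosphatase Dusp6, which removes phosphate from the MAP kinases Erk1 and Erk2, are induced by the same signal and dampen it. In the embryonic forebrain, FGF signalling is known for patterning the cortex along its front to back axis and for maintaining radial glia, the progenitors of cortical neurons.

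On build mm10, with the GENCODE M21 annotation, Fgfr1 lies on chromosome 8 (25513654 to 25575718, plus strand), Fgfr2 on chromosome 7 (130162451 to 133123350, minus strand) and Fgfr3 on chromosome 5 (33721674 to 33737068, plus strand). Etv1 lies on chromosome 12 (38779380 to 38870484, plus strand), Etv4 on chromosome 11 (101769742 to 101785371, minus strand) and Etv5 on chromosome 16 (22381309 to 22439719, minus strand). Spry1 lies on chromosome 3 (37639947 to 37644598, plus strand), Spry2 on chromosome 14 (105891947 to 105896819, minus strand) and Dusp6 on chromosome 10 (99263231 to 99267489, plus strand). The annotated Fgfr2 gene spans 2960900 bp and shares exon sequence on its own strand with Ctbp2, which is also in the matrix, so Fgfr2 counts are uncertain to the extent that reads there were shared out.

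RefSeq promoter windows (GRCm38.p6, 250 bases before to 50 after a start site) were at hand for 7 of the 9 members, in 10 windows. For each of Etv1, Etv5, Spry2 and Dusp6, 1 window is shown. These 4 genes are outputs of the pathway, and the windows shown hold the core letters of ETS factor sites. Etv1 and Etv5 each have another window without a match, and the window of Spry1, also an output, has no match. Capitals mark CCGGAA or AGGAAG on either strand, so TTCCGG and CTTCCT are marked too.
Etv1 (chr12:38779832-38780131, plus strand): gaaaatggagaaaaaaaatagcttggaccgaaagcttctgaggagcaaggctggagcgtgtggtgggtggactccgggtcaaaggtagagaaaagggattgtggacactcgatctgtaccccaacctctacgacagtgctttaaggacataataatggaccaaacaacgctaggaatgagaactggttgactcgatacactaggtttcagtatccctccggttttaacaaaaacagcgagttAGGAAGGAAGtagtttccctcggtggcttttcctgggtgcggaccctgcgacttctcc
Etv5 (chr16:22438319-22438618, minus strand): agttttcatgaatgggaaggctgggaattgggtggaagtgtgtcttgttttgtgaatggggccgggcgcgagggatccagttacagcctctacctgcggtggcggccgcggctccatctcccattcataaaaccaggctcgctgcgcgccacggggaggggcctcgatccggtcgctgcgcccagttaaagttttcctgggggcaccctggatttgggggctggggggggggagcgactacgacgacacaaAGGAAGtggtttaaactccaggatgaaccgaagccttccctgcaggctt
Spry2 (chr14:105896770-105897069, minus strand): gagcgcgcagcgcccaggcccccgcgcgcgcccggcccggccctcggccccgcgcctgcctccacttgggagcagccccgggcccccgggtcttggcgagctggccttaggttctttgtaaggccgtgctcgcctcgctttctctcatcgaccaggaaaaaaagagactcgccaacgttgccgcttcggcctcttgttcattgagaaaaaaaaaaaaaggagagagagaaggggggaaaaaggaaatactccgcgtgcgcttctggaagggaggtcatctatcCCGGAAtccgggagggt
Dusp6 (chr10:99262981-99263280, plus strand): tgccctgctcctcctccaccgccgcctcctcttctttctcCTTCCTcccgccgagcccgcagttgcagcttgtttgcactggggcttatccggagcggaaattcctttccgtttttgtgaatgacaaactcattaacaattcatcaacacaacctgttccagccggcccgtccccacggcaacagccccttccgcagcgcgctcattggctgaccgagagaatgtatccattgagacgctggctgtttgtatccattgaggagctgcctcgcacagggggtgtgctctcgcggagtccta
CCGGAA occurred in 1 of the 10 windows, that of Spry2, against 14.9% of all 32851 windows of this length in the table. AGGAAG occurred in 4 of the 10, those of Etv1, Etv5 and Dusp6 shown above and that of Fgfr2, against 35.4% of all windows. The 2 AGGAAG matches of Etv1 overlap by 2 bases. The longer ACCGGAAGT was in none of the 10 and in 1.10% of all windows. A match is a run of letters and does not show binding, and these shares set nothing apart in the members. The Spry2 window had 28 CpG dinucleotides and 62.7% GC, and the Etv1 window shown had 12 and 48.7%, against medians of 7 and 52.7% over all windows.

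After 4 cells rich in globin RNA were set apart, 5773 cells with 1111 to 17398 UMIs each (unique molecular identifiers, counts of captured molecules) fell into 21 clusters, drawn without the 9 members or other pathway genes. Marker genes gave names to 17 clusters. The cells, in the order of the matrix, were split into 2 runs. The first, of 3651 cells, ends at the last cell with a UMI of a Y-linked gene. The second, of 2122 cells, starts at the first cell with a UMI of any of the 11 genes listed after the alphabetical gene order. By this definition the first run holds all 1363 Y-linked UMIs and the second holds none. Another 4 cells lie between the runs and were put in neither. These sizes were counted over all 5777 cells, before the globin-rich cells were set apart. Embryo, sex and library cannot be told apart between the runs. Levels are UMIs per 1000000 UMIs summed over a class (CPM), which serve to compare 1 gene between classes, not 1 gene with another. Marker lists of other cell types were also summed in the progenitor, excitatory, Lhx6 interneuron and Sp8 interneuron classes. The 9 microglial markers came to 1.08 to 8.66 CPM and the 6 meningeal fibroblast markers to 0.849 to 15.1 CPM. Mural cell markers came to 53.8 CPM in radial glia-like and 61.5 CPM in ganglionic eminence progenitor-like cells, and in ganglionic eminence progenitor-like cells choroid plexus markers came to 102 CPM and oligodendrocyte precursor markers, which include Olig1 and Olig2 of its own list, to 258 CPM. Choroid plexus markers came to 105 CPM in Sp8 interneuron-like cells. Radial glia markers were at 1086 to 1284 CPM in the migrating, deep layer, upper layer and Lhx6 classes, against 12302 CPM in radial glia-like cells. In Sp8 interneuron-like cells they were at 1916 CPM. In the other progenitor classes they were higher, at 4540 CPM in intermediate progenitor-like and 7329 CPM in ganglionic eminence progenitor-like cells. The part of such RNA in the levels below was not tested. Each class is named "-like" because it rests on markers alone.

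**Figure D1:**
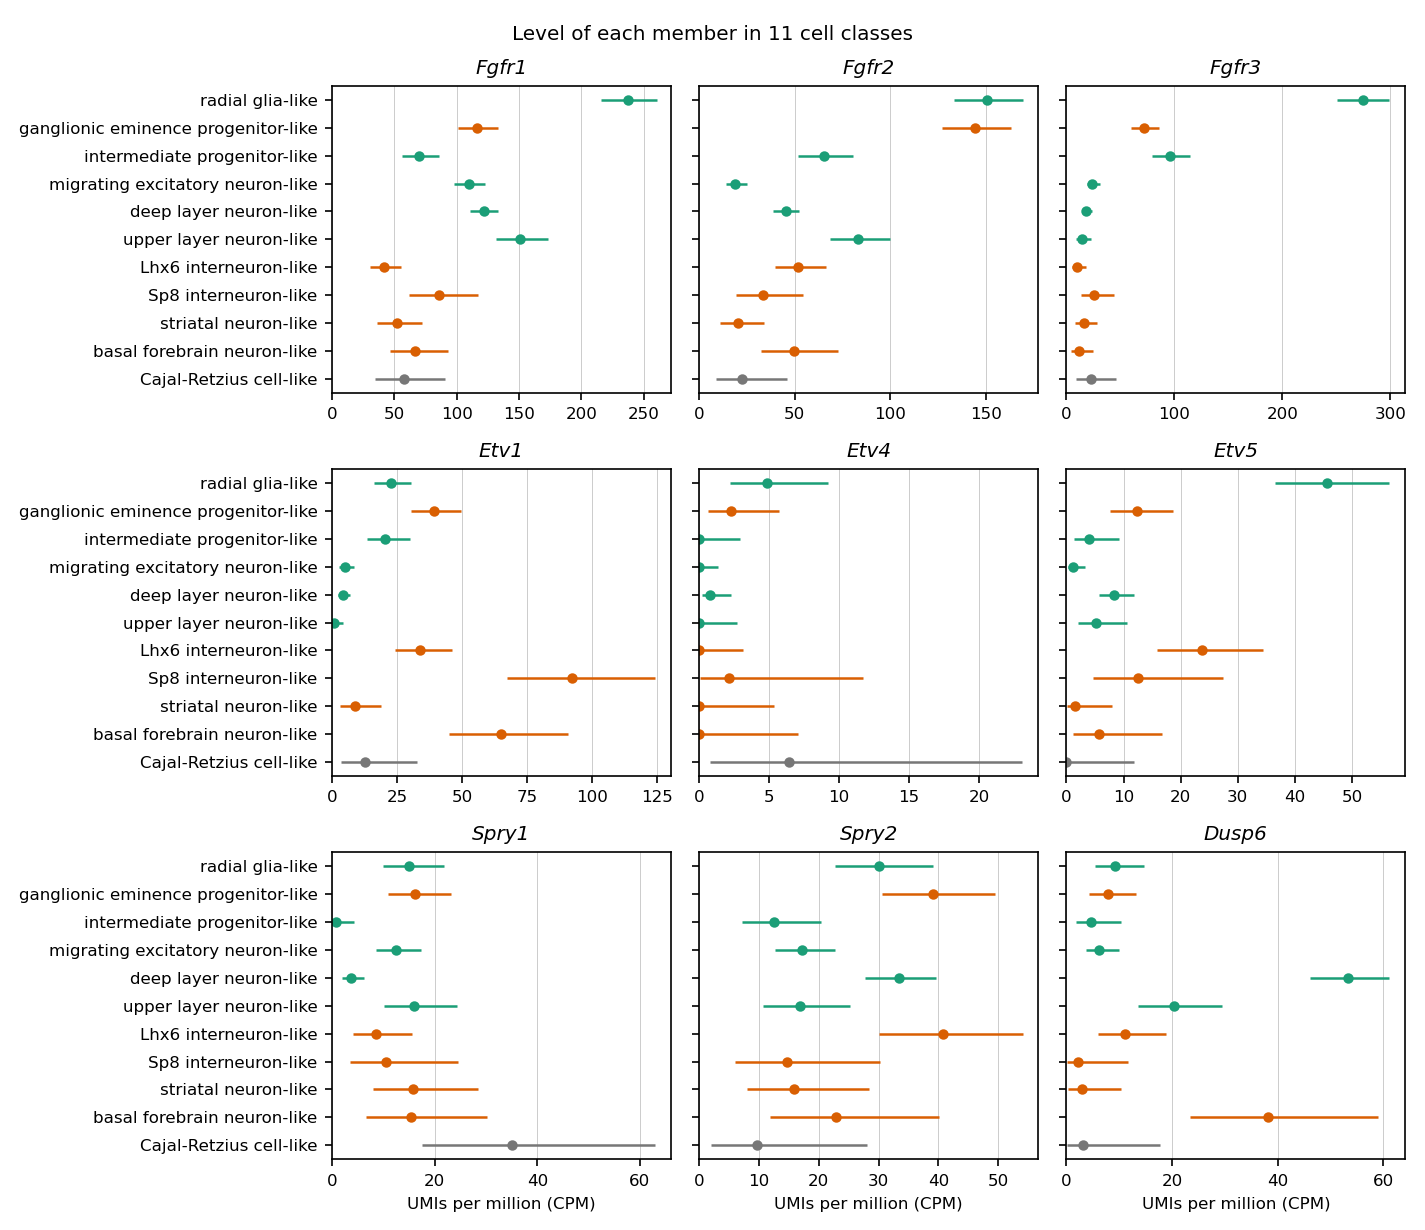
Level of each of the 9 genes in 11 cell classes, in CPM (x axis); points are the pooled level and bars its exact Poisson 95% interval. Green marks dorsal classes, orange ventral ones and grey Cajal-Retzius cell-like cells; Fgfr3 stands at 274 CPM in radial glia-like cells and at or below 95.7 CPM in every other class plotted, Etv1 peaks in Sp8 interneuron-like cells and Dusp6 in deep layer neuron-like cells.

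Among the receptors, Fgfr3 differed most between radial glia-like and excitatory neuron-like cells. At the step to intermediate progenitor-like cells Fgfr1 differed more, 3.40-fold against 2.87-fold. Fgfr3 had 510 UMIs in 547 radial glia-like cells, which is 274 CPM (251 to 299), 95.7 CPM (79.4 to 114) in intermediate progenitor-like cells and 72.1 CPM (60.2 to 85.6) in ganglionic eminence progenitor-like cells. Migrating excitatory neuron-like cells had 24.1 CPM, deep layer neuron-like cells 18.4 CPM, upper layer neuron-like cells 14.6 CPM and Lhx6 interneuron-like cells 10.2 CPM. The interval of the radial glia-like class overlapped that of no other class, and all other neighbours in the order of levels overlapped. In radial glia-like cells Fgfr3 was at 257 CPM in the second run and 289 CPM in the first, a ratio of 0.89 (0.743 to 1.06). With every cell thinned to 1000 UMIs, 21.2% of radial glia-like cells (17.9 to 24.9%, exact binomial) had an Fgfr3 UMI, against 0.628% (0.130 to 1.82%) of Lhx6 interneuron-like cells, a class with little of the gene. Without thinning these shares were 44.8% and 2.09%, at median depths of 3045 and 2282.5 UMIs.

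Fgfr1 did not follow a single gradient along the excitatory lineage. It was at 237 CPM (216 to 260) in radial glia-like cells, 69.8 CPM (56.0 to 85.9) in intermediate progenitor-like cells and 68.5 CPM in the migrating cluster led by Neurod1 and Slc17a6. The migrating cluster led by Unc5d and Pdzrn3 had 148 CPM, 2.15-fold (1.68 to 2.79) above the Neurod1 cluster. An unnamed cluster led by Crym, Crabp1 and Nr4a3 had the highest Fgfr1 level of the 18 clusters with at least 50 cells, 313 CPM from 573 UMIs, which overlapped the 298 CPM of an unnamed cycling cluster described below and was 2.12-fold (1.81 to 2.49) above the Unc5d cluster. Deep layer neuron-like cells had 122 CPM and upper layer neuron-like cells 151 CPM. The 2 deep layer clusters differed: the cluster led by Fosl2 and Nr4a3, with Fezf2 and Sox5 among its first genes, had 170 CPM and the cluster led by Hs3st4 and Tle4 had 70.1 CPM, a 2.43-fold difference (1.97 to 2.99). Lhx6 interneuron-like cells had 41.6 CPM, below the 86.1 CPM of Sp8 interneuron-like cells by 2.07-fold (1.33 to 3.20).

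Fgfr2 was present in both the dorsal and the ventral progenitors, and the log2 ratio of radial glia-like over ganglionic eminence progenitor-like cells moved with the setting, at 0.06 as clustered here, 1.72 with 15 principal components and -1.48 in the second run alone. It had 151 CPM (133 to 169) in radial glia-like cells and 144 CPM (127 to 163) in ganglionic eminence progenitor-like cells, levels whose intervals overlapped, although the 31 ventral cells of the second run had 409 CPM and those of the first run 125 CPM. It was also at 145 CPM in the 25 choroid plexus-like cells. Intermediate progenitor-like cells had 65.1 CPM and migrating excitatory neuron-like cells 19.0 CPM (14.2 to 24.9), a 3.43-fold lower level (2.40 to 4.95) in the migrating cells, which were at 27.8 CPM in the second run and 11.8 CPM in the first. Excitatory neuron-like cells had 55.2 CPM, 2.91-fold (2.16 to 3.99) above the migrating cells. Within the deep layer class Fgfr2 was at 64.9 CPM in the Fosl2 and Nr4a3 cluster and 23.9 CPM in the Hs3st4 cluster, 2.72-fold (1.91 to 3.92) higher, the same direction as Fgfr1.

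**Figure D2:**
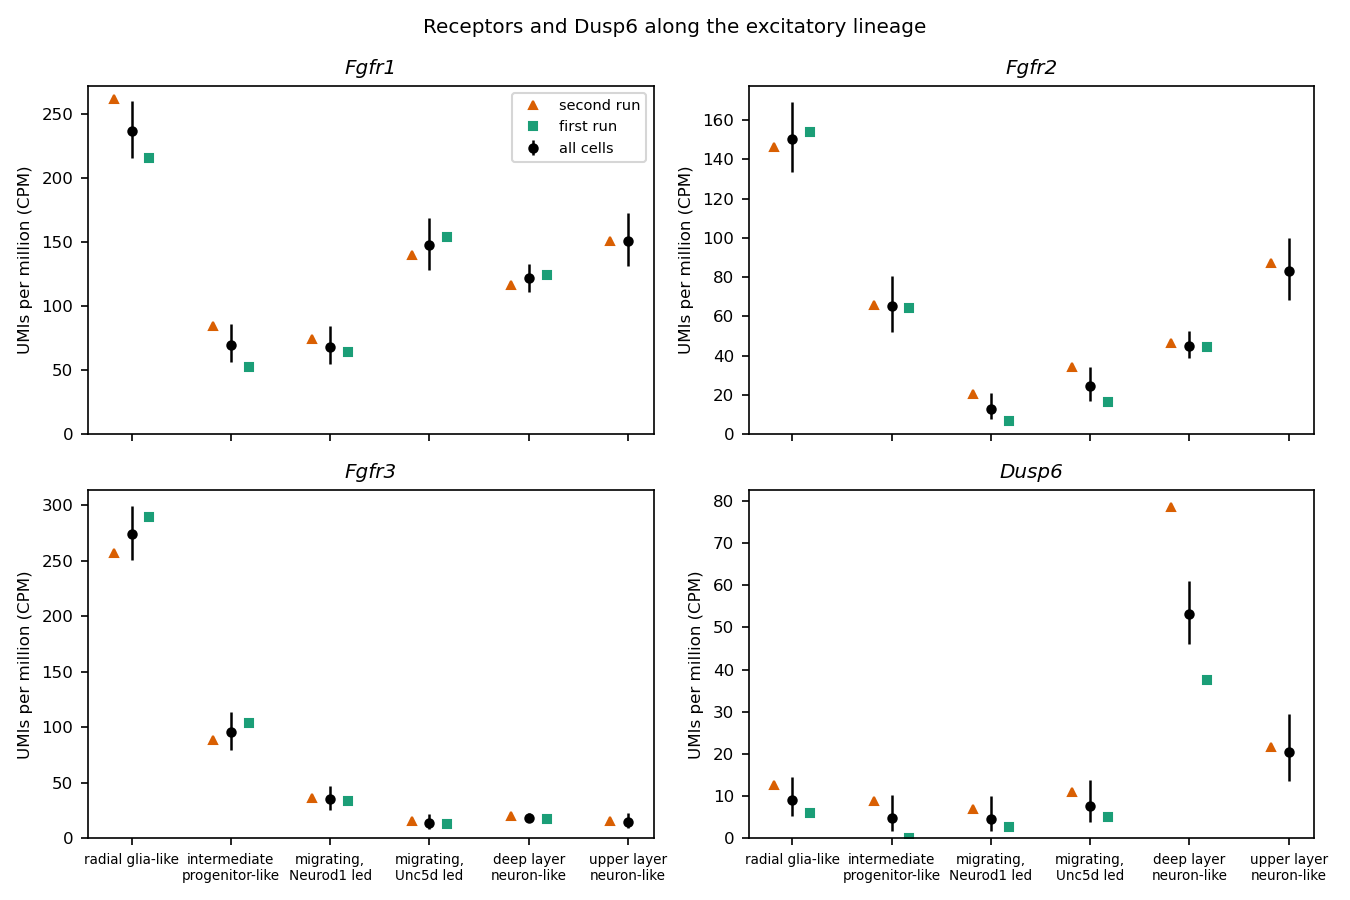
Levels of the 3 receptors and Dusp6 (y axes, CPM, each from 0) along the excitatory classes in their order from radial glia-like cells to layered neurons. Black points are all cells with exact Poisson 95% intervals, orange triangles the second run and green squares the first run, left out for the upper layer class, where it has 19 cells; Fgfr3 is lower at each step to the Unc5d cluster, Fgfr1 is low in intermediate progenitor-like cells and the Neurod1 cluster and higher on both sides, Fgfr2 is lowest in the Neurod1 cluster, and Dusp6 is highest in the deep layer class.

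The Etv factors had lower counts and differed from each other in where they were found. Etv1, known for its place in layer 5 neurons of the later cortex and in olfactory bulb interneurons, had its highest levels in ventral neurons here. It had 92.3 CPM (67.1 to 124) in Sp8 interneuron-like cells, 65.0 CPM (45.0 to 90.8) in basal forebrain neuron-like cells led by Lhx8 and Zic4, 39.1 CPM (30.5 to 49.4) in ganglionic eminence progenitor-like cells and 34.0 CPM (24.3 to 46.3) in Lhx6 interneuron-like cells. Striatal neuron-like cells had 8.65 CPM, so Sp8 interneuron-like cells were 10.7-fold (4.53 to 30.7) higher. Among the dorsal classes, radial glia-like cells had 22.6 CPM, intermediate progenitor-like cells 20.4 CPM, deep layer neuron-like cells 4.20 CPM from 16 UMIs and upper layer neuron-like cells 0.730 CPM from 1 UMI. An unnamed cluster led by Nts, Fam19a2 and Nr2f2, for which the excitatory neuron list scored best, stood above the deep layer class with 39.6 CPM, 9.42-fold (5.10 to 18.2) higher, and the cycling cluster with radial glia markers described below had 43.1 CPM, both close to the ganglionic eminence progenitor-like level. The 2 Lhx6 clusters also differed, with 12.9 CPM in the cluster led by Sst and Nxph2 and 57.7 CPM in the one led by Maf and Dlx1as, 4.49-fold (2.02 to 11.3) lower in the Sst cluster. The Sst cluster has 147 second-run and 83 first-run cells and the Maf cluster 48 and 199. Etv1 was at 2.55 CPM (1 UMI) in the Sst cluster and 91.0 CPM in the Maf cluster of the second run, and at 30.8 and 50.4 CPM in these clusters of the first.

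Etv5 was highest, among classes of 50 cells or more, in radial glia-like cells, at 45.7 CPM (36.5 to 56.5). Lhx6 interneuron-like cells came next with 23.8 CPM (15.8 to 34.4), ahead of Sp8 interneuron-like cells with 12.6 CPM, ganglionic eminence progenitor-like cells with 12.3 CPM (7.70 to 18.6) and deep layer neuron-like cells with 8.40 CPM. Intermediate progenitor-like cells had 5 UMIs (3.92 CPM) and migrating excitatory neuron-like cells 3 UMIs (1.09 CPM). An unnamed cluster of cycling cells led by Ccnb1 and Ube2c, in which 16 of 17 radial glia markers were raised, had 83.4 CPM (67.4 to 102), 1.83-fold (1.35 to 2.48) above the radial glia-like cells. In that cycling cluster Etv1 was 1.91-fold (1.23 to 2.96) and Spry2 1.85-fold (1.27 to 2.70) higher, the 3 receptors 1.201-fold to 1.26-fold higher, and Spry1 4.20-fold (1.47 to 16.5) lower than in radial glia-like cells.

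Etv4 had 33 UMIs in all cells together. Radial glia-like cells held 9 of them (4.84 CPM, 2.21 to 9.19) and ganglionic eminence progenitor-like cells 4 (2.24 CPM). Intermediate progenitor-like, migrating excitatory neuron-like, upper layer neuron-like and Lhx6 interneuron-like cells had 0 UMIs, which allows up to 2.35, 1.09, 2.19 and 2.55 CPM by the limit of 3 counts. At this depth the classes could not be put in order for Etv4.

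Dusp6 was highest among classes of 50 cells or more in deep layer neuron-like cells, with 203 UMIs and 53.3 CPM (46.2 to 61.1), followed by basal forebrain neuron-like cells with 38.2 CPM (23.4 to 59.0) and upper layer neuron-like cells with 20.4 CPM (13.6 to 29.5). All 153 basal forebrain neuron-like cells are in the first run, where deep layer neuron-like cells were at 37.5 CPM, against 78.6 CPM in the second run. Radial glia-like cells had 9.14 CPM (5.33 to 14.6), ganglionic eminence progenitor-like cells 7.82 CPM and intermediate progenitor-like cells 4.70 CPM. The 2 deep layer clusters had similar levels, 49.7 CPM in the Fosl2 and Nr4a3 cluster and 57.1 CPM in the Hs3st4 cluster, a ratio of 0.87 (0.655 to 1.16). Dusp6 was also present in the 17 microglia-like cells at 208 CPM (14 UMIs) and in the 29 meningeal fibroblast-like cells at 70.0 CPM (11 UMIs). The microglial markers summed to 8.66 CPM in deep layer neuron-like cells, with 1 of 9 at 0, and to 4.38 CPM in upper layer neuron-like cells, with 8 of 9 at 0, and their part in the Dusp6 levels was not tested.

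Spry2 was spread over progenitors and neurons. It had 40.8 CPM (30.1 to 54.1) in Lhx6 interneuron-like cells, 39.1 CPM (30.5 to 49.4) in ganglionic eminence progenitor-like cells, 33.3 CPM (27.8 to 39.6) in deep layer neuron-like cells and 30.1 CPM (22.7 to 39.1) in radial glia-like cells, 4 levels whose intervals overlap. Intermediate progenitor-like cells had 12.5 CPM and Sp8 interneuron-like cells 14.7 CPM, so that the Lhx6 class was 2.78-fold (1.25 to 7.27) above the Sp8 class. Spry1 was highest outside the neural classes, with 134 CPM in microglia-like cells (9 UMIs), 114 CPM in choroid plexus-like cells (15 UMIs) and 82.8 CPM in meningeal fibroblast-like cells (13 UMIs). Among the neural classes the 71 Cajal-Retzius cell-like cells came first with 35.1 CPM, an interval that overlapped that of the next class. Ganglionic eminence progenitor-like cells had 16.2 CPM, upper layer neuron-like cells 16.1 CPM, radial glia-like cells 15.1 CPM and migrating excitatory neuron-like cells 12.4 CPM. Intermediate progenitor-like cells held 1 Spry1 UMI (0.784 CPM), and migrating cells were 15.8-fold higher, with a wide interval (2.65 to 642).

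The members were next compared between pairs of classes, over genes with at least 50 UMIs in both classes together; a gene is called higher or lower past 1.5-fold. Between radial glia-like and ganglionic eminence progenitor-like cells, the dorsal and ventral progenitors, 3 of 7 measured members were higher, against 13.4% of all 8858 genes measured, and 1 was lower, against 10%. Here and below, the radial glia-like class leaves out the unnamed cycling cluster of 237 cells with raised radial glia markers. That cluster had 43.1 CPM of Etv1, 83.4 CPM of Etv5 and 55.6 CPM of Spry2. The ventral class has Rrm2, an S-phase gene, among its leading genes. The part of the cell cycle in these ratios was not tested. Fgfr3 was 3.80-fold (3.13 to 4.65) higher, Etv5 3.72-fold (2.30 to 6.24) higher and Fgfr1 2.04-fold (1.73 to 2.42) higher in radial glia-like cells. Etv1 was 1.73-fold (1.16 to 2.60) lower, but in the second run it was at 21.9 CPM in radial glia-like and 25.0 CPM in ganglionic eminence progenitor-like cells, and its log2 ratio was -0.37, inside the limit, when every cluster took its best class. Fgfr2 (ratio 1.04, 0.879 to 1.24), Spry1 (0.929) and Spry2 (0.770) were within the limit over all cells. Within each run Spry2 passed it: it was at 13.1 CPM in radial glia-like and 31.8 CPM in ganglionic eminence progenitor-like cells of the first run, and at 49.6 and 142 CPM in the same classes of the second. The Fgfr2 ratio depended on how the clusters were drawn: its log2 value was 1.72 with 15 principal components and 1.21 with 1000 clustering genes, against 0.06 as drawn here. Spry1 and Spry2 also turned to higher in radial glia-like cells with 15 principal components, with log2 ratios of 2.14 and 0.62. In the second run, where the ventral class has 31 cells, Fgfr1 was at 262 CPM in radial glia-like cells and 259 CPM in ganglionic eminence progenitor-like cells, so its difference rests on the first run.

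In intermediate progenitor-like over radial glia-like cells, the first step of the excitatory lineage, 0 of 6 measured members were higher (13.7% of all 8519 genes) and 5 were lower (20.3%). Etv5 was 11.7-fold (4.80 to 36.8) lower, Fgfr1 3.40-fold (2.70 to 4.32), Fgfr3 2.87-fold (2.35 to 3.52), Spry2 2.40-fold (1.36 to 4.48) and Fgfr2 2.31-fold (1.80 to 2.99) lower. Etv1 was within the limit, with 20.4 CPM in intermediate progenitor-like cells and 22.6 CPM in radial glia-like cells, but the runs differed in direction, with 33.9 and 23.2 CPM in these classes in the first run and 8.75 and 21.9 CPM in the second. The members' median log2 ratio was -1.39, and that of all genes measured -0.03. Spry2 was lower in the second run only, at 11.7 CPM in intermediate progenitor-like cells against 49.6 CPM in radial glia-like cells; in the first run it had 13.6 CPM and 13.1 CPM in the same order of classes.

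Between excitatory neuron-like and radial glia-like cells, 1 of 8 measured members was higher, against 23.7% of all 10037 genes, and 6 were lower, against 30.7%. Dusp6 was the higher one, 4.88-fold (2.98 to 8.52), with 44.6 CPM in excitatory neuron-like cells against 9.14 CPM in radial glia-like cells. It was at 36.3 CPM in the neurons and 6.05 CPM in radial glia-like cells of the first run, and at 51.9 and 12.7 CPM in the same classes of the second. Fgfr3 was 15.8-fold (12.6 at the lower bound) lower, Etv1 6.88-fold (3.84 to 12.9), Etv5 6.07-fold (4.11 to 9.12), Fgfr2 2.73-fold (2.31 to 3.23), Spry1 2.17-fold (1.27 to 3.65) and Fgfr1 1.83-fold (1.62 to 2.07) lower in the neurons. The excitatory class leaves out the unnamed Crym, Crabp1 and Nr4a3 cluster, with 313 CPM of Fgfr1 against 237 CPM in radial glia-like cells. Etv1 was at 5.77 CPM in the neurons and 23.2 CPM in radial glia-like cells of the first run, and at 1.09 and 21.9 CPM in those of the second. When every cluster took its best class, its log2 ratio was -1.80, against -2.78 here, and that of Spry1 was -0.45, inside the limit. Spry2 had a ratio of 0.961 (0.703 to 1.33) over all cells, but it was 2.17-fold higher in the first run and 1.69-fold lower in the second.

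In interneuron-like over ganglionic eminence progenitor-like cells, 1 of 6 measured members was higher (19.6% of all 8587 genes) and 3 were lower (24.8%), and the lower ones were the receptors. Fgfr3 was 4.97-fold (3.19 to 8.03), Fgfr2 3.10-fold (2.39 to 4.05) and Fgfr1 2.14-fold (1.66 to 2.77) lower in interneuron-like cells. Etv5 passed the limit at 1.67-fold higher, but the lower bound of its interval, 0.950, is below 1, and in the first run it was at 12.1 CPM in interneuron-like and 13.2 CPM in ganglionic eminence progenitor-like cells. Etv1 had 50.8 CPM in interneuron-like cells and 39.1 CPM in the progenitors, within the limit. In the first run alone it passed the limit, at 61.4 and 39.6 CPM, 1.55-fold higher. Spry2 had 33.3 CPM in interneuron-like cells and 39.1 CPM in the progenitors, also within the limit. In the second run Spry2 was at 43.4 CPM (25 UMIs) and 142 CPM (17 UMIs) in the same classes. The Fgfr2 log2 ratio of -1.63 came to -0.07 with 15 principal components, and the Fgfr1 ratio of -1.09 to -0.50 with 1000 clustering genes. Etv1 changed direction with 15 principal components, to a log2 ratio of -0.67.

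Between deep layer and upper layer neuron-like cells, 2 of 5 measured members were higher, against 13.6% of all 8994 genes, and 1 was lower, against 4.59%. Dusp6 was 2.61-fold (1.75 to 4.02) and Spry2 1.99-fold (1.27 to 3.25) higher in deep layer cells, and Fgfr2 was 1.84-fold (1.44 to 2.35) lower. Of the 301 upper layer cells, 282 are in the second run and 19 in the first, so this comparison rests on the second run, where Dusp6 was at 78.6 CPM in deep layer and 21.6 CPM in upper layer neuron-like cells. In the first run, with 88 Dusp6 UMIs in deep layer cells and 0 in the 19 upper layer cells, it could not be judged. Spry1 was under the 50 UMIs asked of a measured gene, with 3.67 CPM in deep layer and 16.1 CPM in upper layer neuron-like cells, 4.37-fold (2.14 to 9.24) lower in the deep layer.

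In interneuron-like over excitatory neuron-like cells, 2 of 8 measured members were higher (11% of all 9561 genes) and 2 were lower (14.6%). Etv1 was 15.5-fold (9.12 to 27.8) higher, with 50.8 CPM in interneuron-like cells and 3.28 CPM in excitatory neuron-like cells, and Etv5 was 2.73-fold (1.67 to 4.44) higher. Etv1 was at 61.4 CPM in interneuron-like and 5.77 CPM in excitatory neuron-like cells of the first run, and at 31.2 and 1.09 CPM in the second. The excitatory class does not hold the unnamed Nts cluster, with 36 Etv1 UMIs; when every cluster took its best class the Etv1 log2 ratio was 2.55, against 3.95 here. Dusp6 was 5.27-fold (3.08 to 9.78) lower and Fgfr1 2.38-fold (1.91 at the lower bound) lower in interneuron-like cells. Each of these 4 kept its direction in both runs. The unnamed Crym, Crabp1 and Nr4a3 cluster, with 313 CPM of Fgfr1, is also outside the excitatory class. Fgfr2, Fgfr3, Spry1 and Spry2 were within the limit, with ratios of 0.844, 0.836, 1.31 and 1.15.

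**Figure D3:**
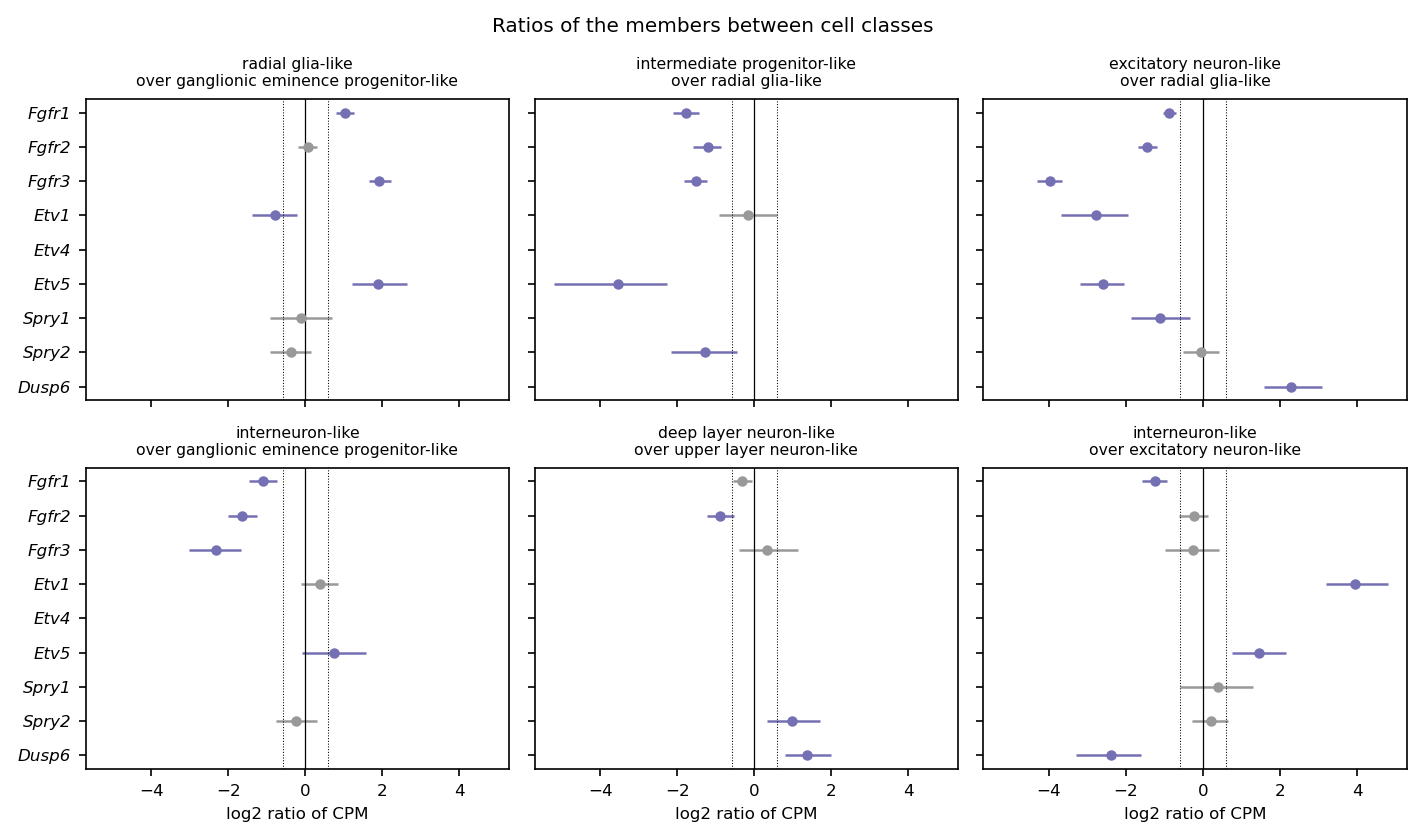
Log2 ratios of the members' CPM (x axis) in the 6 comparisons, the class named first in each title over the second; bars are exact conditional binomial 95% intervals, dotted lines mark 1.5-fold, and purple points lie past it. Genes with fewer than 50 UMIs over both classes have no point; the 3 receptors lie left of 0 in the intermediate progenitor, excitatory neuron and interneuron comparisons with progenitors, Dusp6 lies right of 0 in excitatory neurons and deep layer neurons, and Etv1 lies right of 0 in interneurons over excitatory neurons.

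The other genes of the pathway were taken from 7 lists of 91 genes, of which 80 are in the matrix. Between excitatory neuron-like and radial glia-like cells, 19 of 58 measured genes were higher and 15 lower, against 23.7% and 30.7% of all genes. Of the FGF ligand list, 4 of 5 measured genes were higher in the neurons, led by Fgf18, a secreted ligand, at 7.72-fold (3.45 to 21.4) with 24.9 CPM in excitatory neuron-like and 3.23 CPM in radial glia-like cells. The other 3, Fgf11, Fgf12 and Fgf14, encode intracellular FGF family proteins that are not ligands of these receptors, and they were 3.20-fold, 1.96-fold and 6.10-fold higher. Of 10 co-receptors and receptor partners, 5 were higher, led by the adhesion protein Flrt2 (5.26-fold), and 5 were lower; the proteoglycan Sdc4 had 2 UMIs in excitatory neuron-like and 51 in radial glia-like cells, a ratio of 0.014 (0.0017 to 0.054). Among heparan sulfate enzymes, the 6-O-sulfotransferase Hs6st2 was 3.08-fold higher and the 2-O-sulfotransferase Hs2st1 4.03-fold lower. Of 8 other ETS factors, 0 were higher and 4 lower, with Elk3 19.0-fold (10.3 at the lower bound) lower. The small GTPase Rras was 36.9-fold lower, from 4 UMIs in the neurons, and the Ras inhibitor Spred1 2.22-fold lower.

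At the step to intermediate progenitor-like cells, 8 of 51 measured pathway genes were higher and 12 lower, near the 13.7% and 20.3% of all genes. Flrt1 stood out by its size, 13.1-fold (8.43 to 21.4) higher with 155 CPM in intermediate progenitor-like and 11.8 CPM in radial glia-like cells. Fgf11, which encodes an intracellular protein of the FGF family, was 3.75-fold higher and Fgf13, of the same kind, 2.28-fold lower. Between the dorsal and ventral progenitors, 8 of 53 were higher and 10 lower, against 13.4% and 10% of all genes. Elk3 was 5.26-fold (3.01 to 9.83) and Sdc4 4.09-fold (2.15 to 8.43) higher in radial glia-like cells. The heparan sulfate endosulfatase Sulf2 was 4.70-fold and Flrt2 3.84-fold lower there, and the ligand Fgf15 was 1.93-fold (1.25 at the lower bound) lower, with 18.3 CPM in radial glia-like and 35.2 CPM in ganglionic eminence progenitor-like cells.

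In interneuron-like over ganglionic eminence progenitor-like cells, 9 of 52 measured pathway genes were higher and 14 lower, near the 19.6% and 24.8% of all genes. Fgf15 was 6.47-fold (3.20 at the lower bound) lower and Fgfrl1, a receptor-like protein without a kinase domain, was 6.30-fold lower, with 6.65 CPM in interneuron-like and 41.9 CPM in ganglionic eminence progenitor-like cells. Fgf12, also an intracellular member of the FGF family, was 8.89-fold higher, and the ETS factor Ets1 3.71-fold higher. Between deep and upper layer neuron-like cells, 6 of 53 were higher and 3 lower, near the 13.6% and 4.59% of all genes. Fgf18 was 2.95-fold (1.69 to 5.57) and Sulf2 3.92-fold higher in deep layer cells, and Flrt3 was 6.54-fold (5.34 at the lower bound) lower. In interneuron-like over excitatory neuron-like cells, 10 of 56 were higher and 10 lower, against 11% and 14.6% of all genes, with Ets1 21.5-fold (9.67 to 56.3) and Fgf12 4.52-fold higher, and Hs6st2 12.3-fold, Fgf18 5.88-fold and the glypican Gpc4 5.65-fold lower.

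Within a class, cells with a UMI of a regional or subtype marker were set against cells without one, all thinned to 1000 UMIs. Radial glia-like cells with Nr2f1, a factor graded along the cortex, had 348 CPM of Fgfr3, against 185 CPM in those without it, a 1.89-fold difference (1.32 to 2.72). The same split gave 192 and 215 CPM for Fgfr1, with Nr2f1 and without, a ratio whose interval includes 1. Interneuron-like cells with Lhx6 had 20.5 CPM of Fgfr1 and 73.8 CPM of Fgfr2, against 81.2 CPM and 25.5 CPM in those without Lhx6. Fgfr1 was thus 3.96-fold lower, from 5 UMIs in the Lhx6 cells, and Fgfr2 2.89-fold (1.29 to 6.77) higher; without thinning Fgfr1 was at 47.7 and 63.4 CPM, with an interval that includes 1, and Fgfr2 was 1.77-fold higher. In ganglionic eminence progenitor-like cells Fgfr2 was lower in cells with Nkx2-1 (3 UMIs, 42.9 CPM, against 141 CPM without); without thinning it was 1.79-fold lower. Excitatory neuron-like cells with Fezf2 had 84.4 CPM of Fgfr2, against 43.0 CPM in those without, 1.96-fold (1.15 to 3.32) higher, and 1.37-fold higher without thinning. Between radial glia-like cells with at least 2 UMIs of G2/M genes and those with 0, no member had an interval clear of 1 at 1000 UMIs a cell.

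The 3 receptors were seen together in radial glia-like cells in counts close to the product of their shares. At 1000 UMIs a cell, Fgfr1 and Fgfr2 were both seen in 14 cells, against 10.9 by the product, Fgfr1 and Fgfr3 in 21 against 19.5, and Fgfr2 and Fgfr3 in 16 against 13.8. In counts this sparse such small excesses are no finding.

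Over the 18 clusters of at least 50 cells, 10044 genes were ranked by the Pearson correlation of their log2(CPM + 10) with each member. Clusters share libraries and depth, so these values only describe, and with 1 CPM added in place of 10 another gene came first for Fgfr3, Etv1, Etv5, Spry1 and Dusp6. Fgfr3 was most like Plce1 (r = 0.97), Gas1 (0.97) and Gli3 (0.97), and Etv5 most like Id3 (0.90), Dzip1l (0.88) and 1110032F04Rik (0.87). Dusp6 was most like Slc8a3 (0.89), Thy1 (0.87) and Rnf32 (0.86). Fgfr1 came closest to Alg13 (0.88), Snx18 (0.87) and Elovl6 (0.86), Fgfr2 to Fosb (0.88), Gm5523 (0.87) and Ndc1 (0.85), and Etv1 to Iws1 (0.82), Ilvbl (0.81) and Npas3 (0.81). The genes nearest to Spry2 were Gm11837 (0.90), Dzip1l (0.85) and Oxct1 (0.72), and those nearest to Spry1 were Atp10d (0.78), Wrnip1 (0.77) and B3galt6 (0.75). Etv4, at 33 UMIs, was nearest to Ctdspl (0.92), Pmp22 (0.91) and Cenpw (0.91).

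Fgfr1, Etv1, Spry2 and Dusp6 differed between the runs of cells, with intervals clear of 1, in 2 or more of the 5 classes compared. In radial glia-like cells Spry2 was at 49.6 CPM in the second run (43 UMIs) and 13.1 CPM in the first (13 UMIs), 3.78-fold (1.998 to 7.67). In deep layer neuron-like cells Dusp6 was at 78.6 CPM in the second run and 37.5 CPM in the first, 2.10-fold (1.58 to 2.80), and Spry2 was 1.53-fold (1.06 to 2.20) higher in the second run. Dusp6 had 6 UMIs in intermediate progenitor-like cells of the second run and 0 in those of the first. Etv1 was lower in the second run in 4 of the 5 classes. It was at 8.75 CPM in the second run and 33.9 CPM in the first in intermediate progenitor-like cells, a 3.88-fold difference, and at 20.3 and 43.9 CPM in Lhx6 interneuron-like cells, 2.16-fold. It had 2 UMIs in the second run and 12 in the first in migrating excitatory neuron-like cells, and 2 and 14 in deep layer neuron-like cells. Among the receptors, Fgfr1 was at 84.6 CPM in the second run and 52.6 CPM in the first in intermediate progenitor-like cells, and Fgfr2 was 2.35-fold (1.29 to 4.42) higher in the second run in migrating excitatory neuron-like cells. Fgfr1, Fgfr2 and Fgfr3 had ratios of 1.21, 0.95 and 0.889 in radial glia-like cells and 0.937, 1.05 and 1.205 in deep layer neuron-like cells, and of these 6 only Fgfr1 in radial glia-like cells had an interval clear of 1 (1.003 to 1.47). Since each run may hold several embryos or a single one, no cause of these differences was tested.

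**Figure D4:**
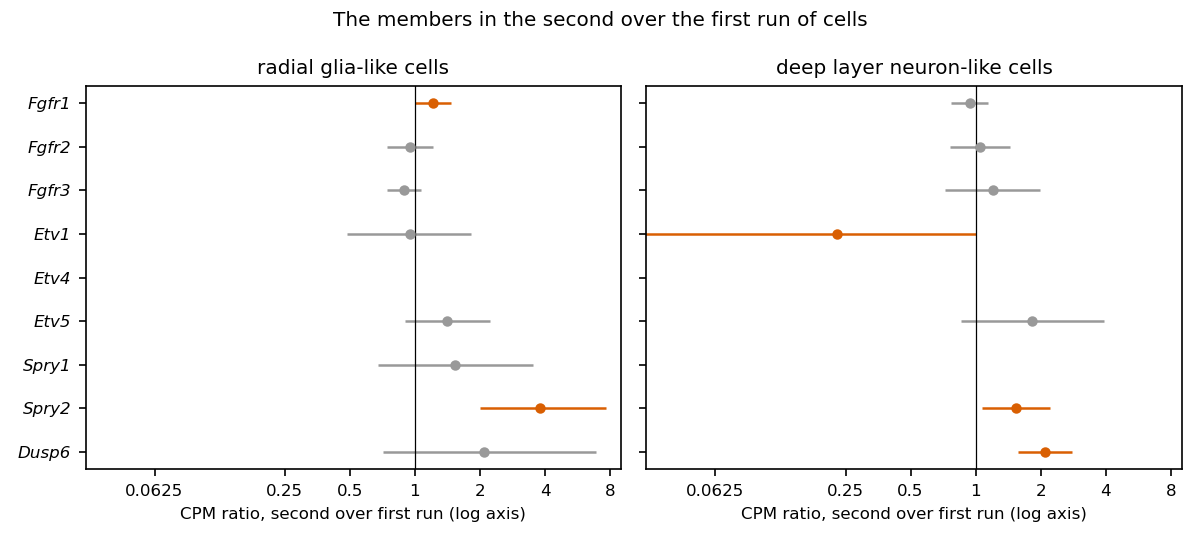
Ratio of each member's CPM in the second over the first run of cells (x axis, log scale) in radial glia-like and deep layer neuron-like cells, with exact conditional binomial 95% intervals. Orange points have intervals clear of 1, grey ones do not, and members with fewer than 15 UMIs in the class are left out; Spry2 lies at 3.78 in radial glia-like cells and Dusp6 at 2.10 in deep layer neuron-like cells.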

How the data were processed

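Raw counts were used as deposited: 1 matrix of whole-number counts (UMIs) per gene and cell, with no normalization. The submitters' processing notes name build mm10; which aligner, counter and gene annotation the authors used is not given here by any label or header. The matrix holds 21609944 UMIs, a median of 3258 a cell, and 0 mitochondrial genes. The members, gene lists and comparisons were chosen with earlier results of these data known.

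Cells needed 500 UMIs, which removed 0 cells, and 4 cells with over 10% globin UMIs were set apart. Counts scaled to 10000 and log transformed over 2000 variable genes, without the members, the pathway lists, sex genes and ribosomal protein genes, gave 30 principal components. A graph of 15 neighbours and Leiden clustering (leidenalg 0.10.2, resolution 1, seed 1; scanpy 1.11.5, Python 3.11.15) gave 21 clusters. Clusters were named for the marker list with the largest mean log2 fold against other cells, if that mean reached 0.5, at least 3 of its markers were raised 1.5-fold, 1 was among the 20 leading genes and no other list led; of 181 markers in 23 lists, 168 are in the matrix, and 1058 cells stayed unnamed. Doublets were kept, and removing the 5% with the highest scores was an alternative. UMIs were summed per class; levels have exact Poisson, shares Clopper-Pearson and ratios exact conditional binomial intervals (scipy 1.17.1) at 95%, and a count of 0 is read as at most 3. With 1 pool there is no test across samples and no p-value is given. The ratios and intervals were tested on simulated Poisson counts, which hold counting error only and no spread between cells or embryos. Pathway genes named are, in each list and comparison, those with the highest and lowest ratio past 1.5-fold, some of them given here, and Fgf11, Fgf12 and Fgf14 in neurons outside this rule; for likeness, the 3 nearest genes. Clusters named by their leading genes were picked after their values were seen. Alternatives varied the clustering, the runs, the weighting, the fold limit and the UMI minimum.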

Additional observations from a re-analysis of the deposited data

How the results depend on the processing

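Over 14 alternatives, 487 ratios of members were set against a limit, which was 1.5-fold except in the 2-fold alternative. The 2-fold alternative reused the ratios unchanged, with 35 judged the same and 5 inside its limit. The minimum of 10 UMIs also left the 40 ratios unchanged, so these 2 alternatives could not move a ratio. In all, 441 stayed on their side of the limit and 13 went inside it. Another 30 went past it, some of them with a change of sign, and 3 called values changed sign. The 3 were in deep over upper layer neuron-like cells in the first run only, which has 19 upper layer cells: log2 ratios of -0.062 for Dusp6, 1.76 for Fgfr2 and -0.91 for Spry2. The counts of members moved as follows. For radial glia-like over ganglionic eminence progenitor-like cells, 6 were higher at resolution 0.5 and with 15 principal components and 1 in the second run, and 2 were lower without cell cycle genes, in either run alone and with equal weight per cell, against 0 at a 2-fold limit. For intermediate progenitor-like over radial glia-like cells, 3 were lower in the first run, where 3 were measured. For excitatory neuron-like over radial glia-like cells, 2 were higher and 4 lower with the first run alone, and 5 lower with the second alone. For interneuron-like over ganglionic eminence progenitor-like cells, 0 were higher with 15 principal components, with 1000 features, without cell cycle genes, with high doublet scores removed, on split UMIs, in the second run and at the 2-fold limit. For deep over upper layer neuron-like cells, 1 was higher in the first run and at the 2-fold limit and 4 with a minimum of 10 UMIs; 2 were lower with 15 principal components, 1000 features or 10 UMIs and 0 at the 2-fold limit. For interneuron-like over excitatory neuron-like cells, 1 was higher at resolution 0.5, on split UMIs and with the first run alone, and 0 with the second alone. Resolution 0.5 allowed 5 of the 6 comparisons, and clusters drawn on 50% of the UMIs allowed 2, since the classes were not named. In the smaller runs and on split UMIs fewer genes reach 50 UMIs; other causes were not tested. No paired analysis was possible because the samples are 1 group and cells are not tied to samples. The alternative in which every cluster takes its best class was chosen after seeing the data.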
